A study of Eptatretus atami with 13 samples.

Results

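Ovary-restricted gene models of the brown hagfish *Eptatretus atami* are described here, that is, annotated genes whose RNA was far higher in the ovary than in any of the other 12 organs sequenced. A gene model was called ovary-restricted when it reached at least 5 FPKM in ovary and at least 5 times the highest of the other 12 organs, or at least 5 FPKM with no count elsewhere. FPKM is the count of a model divided by its exon length and by the total of counts assigned to models in the library, in the usual scale. The rule was met by 352 of 37562 gene models, which is 0.937% of all models and 3.16% of the 11147 models with at least 5 FPKM in ovary. The most abundant transcripts of the ovary are described beside them, whether restricted or not.

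The vertebrate ovary holds oocytes, arrested in meiosis and loaded with maternal RNA, protein and yolk, surrounded by follicle cells and connective tissue. Yolk precursor proteins are made mostly in the liver and taken up by the growing oocyte. Hagfishes also discard part of their genome from somatic cells during early development, so that germ cells, those of the ovary included, carry DNA that other cells of the animal lack.

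The libraries came from ovary, skin, slime gland, gills, intestine, liver, gall bladder, kidney, heart, blood cells, skeletal muscle of the tongue, brain and adipose tissue, all labelled as wild type, with 1 library for each. Every library was also labelled with normal embryonic development as treatment and whole organism as cell type, and the labels gave no animal, sex, age or stage of the ovary. Strand-specific RNA-seq libraries were sequenced in pairs of 150-base reads, and between 18800367 and 39077785 counts were assigned to gene models per library, with 27423664 in ovary. In the ovary library 5 FPKM corresponded to 137 counts for a model of 1000 bp. Because each organ had 1 library, no spread between animals could be measured and no test was made. Every interval below is a 95% exact interval. Intervals on ratios and on shares of counts are for counting error alone and were computed on read pairs. Intervals on shares of gene models are binomial over models, treat models as independent and do not measure counting error. The library labelled adipose tissue resembled the brain library, with a Pearson correlation of 0.978 across 19238 gene models on the log2(FPKM + 1) scale, against 0.668 to 0.818 between ovary and the other 12 libraries. Ratios and counts that rest on that library are given with and without it where their gene models are named. RNA came from whole organs, so that fewer cells of a type and less RNA per cell cannot be told apart.

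The ovary had more restricted gene models than any other library when all 13 were compared. The same rule found 161 in gills, 126 in slime gland, 118 in intestine, 103 in liver, 97 in kidney, 93 in blood cells, 78 in heart, 69 in skin, 46 in skeletal muscle and 25 in gall bladder. It found 2 in the library labelled adipose tissue and 0 in brain, the pair that resembled each other. With the library labelled adipose tissue left out, brain had 772 and ovary 357, so that ovary then came second. The order also depended on how libraries were scaled to each other. With the TMM factors of edgeR, which scale libraries on the bulk of gene models in place of the total, ovary had 224, liver 219 and skeletal muscle 166, and with DESeq2 size factors liver had 225, ovary 219 and skeletal muscle 189.

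**Figure D1:**
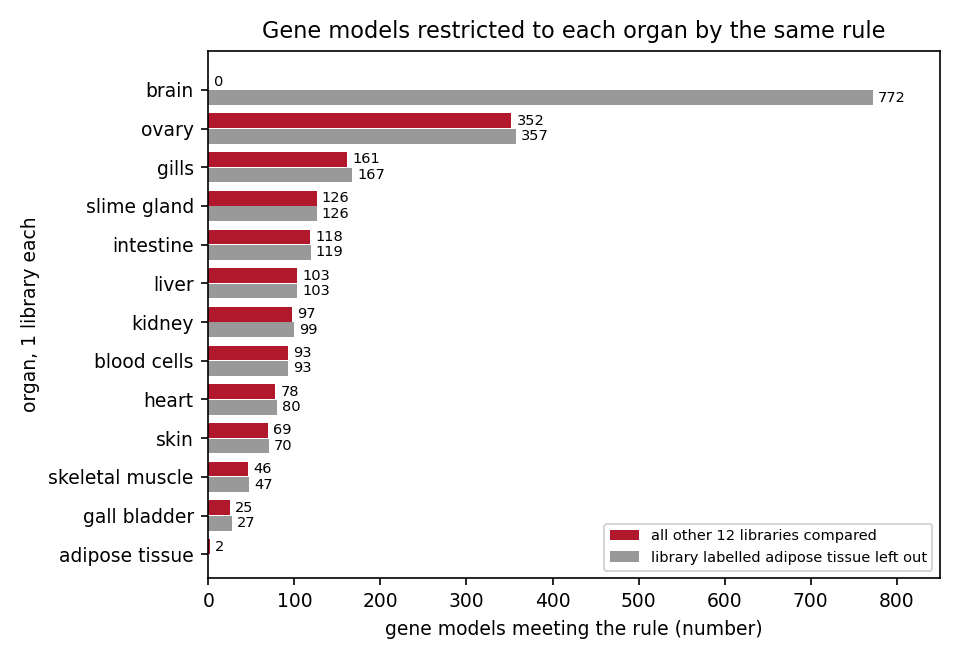
Number of gene models that met the restriction rule in each organ, with all other 12 libraries compared (red) and with the library labelled adipose tissue left out (grey). Ovary had 352 and 357, and brain had 0 and 772.

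The restricted models took a small part of the ovary library. They held 4.18% of its counts (4.17 to 4.19), whereas models restricted to the liver held 71.3% of the liver library, and the median over the other 10 organs with more than 2 restricted models was 23.9%. Their levels ran from 5.02 to 1191 FPKM with a median of 39.0 and quartiles of 16.2 and 93.7. Among them 81 reached 100 FPKM, 218 lay between 10 and 100, and 53 between 5 and 10. The counts behind these levels had a median of 1461.5, and 20 members rested on fewer than 100 counts.

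By the rule, every member with a count elsewhere stood at 5 times the next organ or more. Among the 339 members with a count elsewhere, the ratio of ovary to the next highest organ was between 5 and 10 for 143, between 10 and 100 for 143, and 100 or more for 53, with a median of 12.9. The next organ was under 1 FPKM for 133 members and at 5 FPKM or more for 101. The lower bound of the ratio was 5 or more for 258 members and under 5 for 81. The next organ was brain for 75 members, gills for 57, the library labelled adipose tissue for 51, blood cells for 41, gall bladder for 27, intestine for 20, skin for 19, kidney for 17, heart for 13, skeletal muscle for 10, slime gland for 8 and liver for 1. Brain and the library that resembled it were thus next for 126 of 339 (37.2%), compared with 15.3% for brain and 12.97% for the library labelled adipose tissue among the models that were highest in ovary but not restricted. With the library labelled adipose tissue left out, brain was next for 31 of the 51 members concerned and for 106 of 339 in all (31.3%), compared with 23.4% among the models highest in ovary but not restricted, and the median ratio was 13.1.

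**Figure D2:**
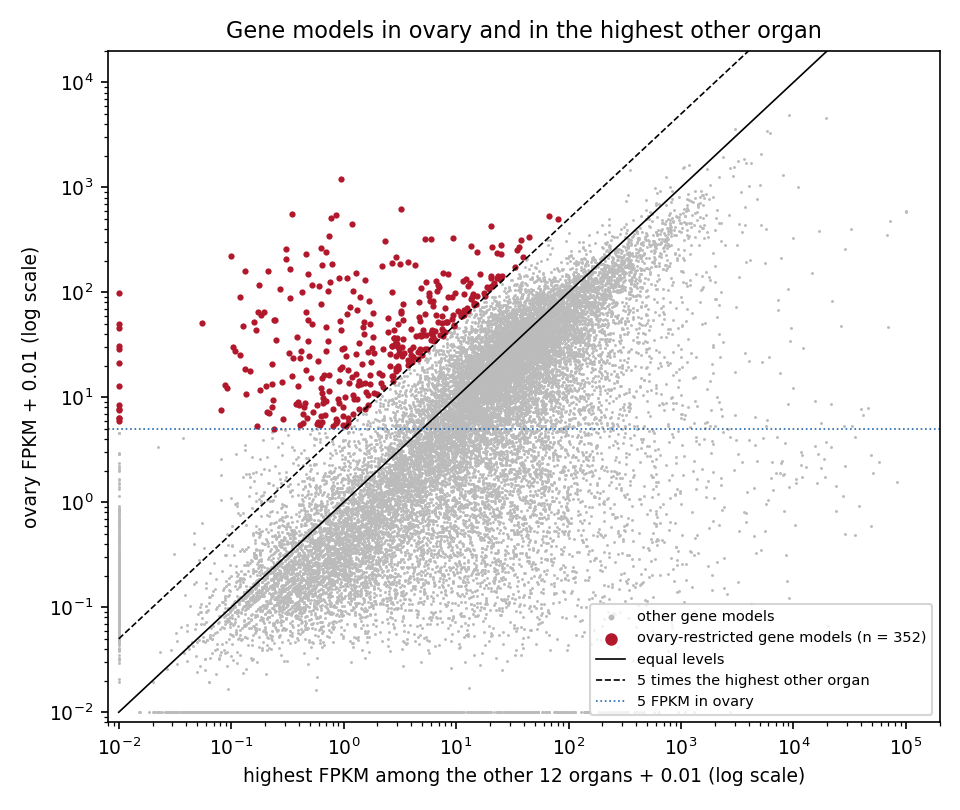
Level of every gene model in ovary (y axis, FPKM + 0.01, log scale) against the highest level among the other 12 organs (x axis, same scale). The 352 ovary-restricted models (red) lie above both the 5-fold line and the 5 FPKM line, and the column at the left edge holds models with no count elsewhere, 13 of them members.

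The rule has a sharp edge where models are dense. Just inside it were EA72018 at 5.01 times the next organ, EA06406 at 5.03 times and EA24337 at 5.06 times, and just outside were EA50837 and EA23916 at 4.98 times and EA28127 at 4.95 times. A further 309 models with at least 5 FPKM stood at 3 to 5 times the next organ, and in all 3736 models with at least 5 FPKM had their highest level in ovary, or 1711 under TMM.

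How the libraries are scaled to each other also moved the number of members. Scaling by the total of assigned counts placed the median gene model 0.57 higher in ovary than in the median of the other 12 organs, on the log2(FPKM + 1) scale. This shift was 0.05 with edgeR's TMM factors and 0.03 with DESeq2 size factors. Under TMM 224 gene models met the rule, all of them among the 352, and under DESeq2 size factors 219 did, again all among the 352. Of the 53 members with a ratio of at least 100, 52 still met the rule under TMM. The TMM factors ran from 0.288 in liver to 1.83 in ovary. Rescaling within that range could not bring a ratio of 100 below the fold of the rule. Only the minimum level in ovary could remove such a member, so this count does not test how large ratios depend on scaling.

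The 20 highest members, which held 28.2% of the counts of all 352, lay between 269 and 1191 FPKM. None of them carried a gene symbol or a protein domain in the annotation used here, which covered chromosome 1 only, so that what they encode was not analysed. For 5 of the 20 the next organ was under 1 FPKM, for 8 the ratio to it was at least 100, and 19 still met the rule under TMM.

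EA81865 on chromosome 17 (72146857 to 72148497, 4 exons) was the highest. It had 1191 FPKM in ovary from 13328 counts, against 0 as the lowest and the median and 0.941 as the highest of the other 12 organs, the highest being skeletal muscle. The ratio was 1266 (602 to 2751). Ovary was far above every other library, and most of the others had no count. EA27676 on chromosome 5 had 622 FPKM in ovary, against a lowest and a median of 0 and a highest of 3.21 in intestine, a ratio of 194 (121 to 333). EA45179 on chromosome 2 had 555 FPKM, against a lowest and a median of 0 and a highest of 0.340 in skeletal muscle, a ratio of 1631 (699 to 5026). EA67182 on chromosome 8 had 548 FPKM, against 0.0399, 0.262 and 0.838 for the lowest, median and highest of the others, a ratio of 654 over brain (415 to 1179). In these models the other organs all lay within a few FPKM of 0.

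Other members among the 20 highest were also transcribed elsewhere at a moderate level. EA17367 on chromosome 11, a model of 23 exons, had the most counts of all members, 49979. It reached 529 FPKM in ovary, against 0.803, 13.6 and 66.4 for the lowest, median and highest of the others, and its ratio over kidney was 7.96 (7.66 to 8.27). EA17803, which lay outside the chromosome scaffolds, had 495 FPKM against 2.66, 29.9 and 80.8, a ratio of 6.12 over gills (5.81 to 6.45). EA82967 on chromosome 15 had 336 FPKM against 0.548, 11.1 and 44.5, a ratio of 7.55 over the library labelled adipose tissue (7.04 to 8.12) and of 9.75 over brain without that library. EA82967 was the member of the 20 that fell below the rule under TMM, at 4.49 times. EA19576 on chromosome 13 had 317 FPKM against 0.0970, 4.74 and 37.8, and EA69467 on chromosome 12 had 279 against 1.83, 12.8 and 24.8, with ratios of 8.39 over gall bladder (7.71 to 9.15) and 11.3 over the library labelled adipose tissue (10.4 to 12.2), or 12.1 over brain without that library. These models were present in all 12 other libraries, with median levels there of 4.74 to 29.9 FPKM. They differed from the models described before them in level and not always in presence, since EA67182 also had counts in all 12.

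A further group was quiet in most organs but had a clear signal in at least 1 other. EA53220 on chromosome 14 had 431 FPKM in ovary, against a lowest of 0, a median of 0.0980 and a highest of 20.3 in brain. EA42728 on chromosome 2 had 329 FPKM, with 0, 0 and 9.29 for the others, the highest being heart. EA12775 on chromosome 10 had 275 FPKM, with 0, 0.108 and 13.7, the highest being skin. These ratios were 21.3 (19.2 to 23.5), 35.4 (29.1 to 43.6) and 20.1 (18.5 to 21.96). EA03586 on chromosome 6 had 270 FPKM against 0, 0.459 and 36.1, a ratio of 7.47 over gall bladder (6.63 to 8.49), and EA32782 on chromosome 7 had 269 against 0.0437, 0.113 and 20.9, a ratio of 12.9 over kidney (12.03 to 13.9). The remaining members of the 20 highest were EA75083 at 510 FPKM and EA72875 at 448, neighbours on chromosome 3, EA48581 at 347 on chromosome 9, EA83260 at 323 and EA82959 at 320 on chromosome 15, and EA00785 at 306 on chromosome 6. Their ratios to the next organ ran from 53.9 for EA82959 to 663 for EA75083.

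**Figure D3:**
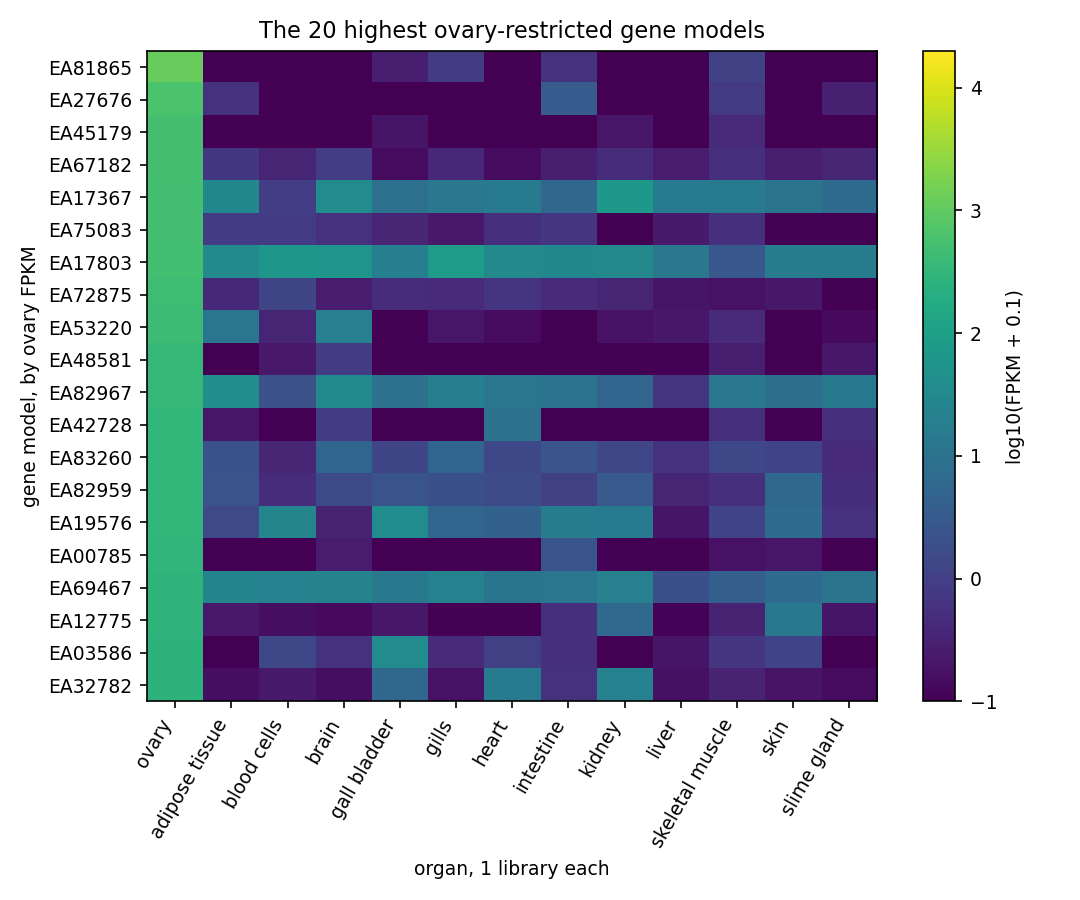
Levels of the 20 highest ovary-restricted gene models in all 13 libraries, as log10(FPKM + 0.1) by colour, with ovary in the first column. EA81865 reached 1191 FPKM in ovary and at most 0.941 elsewhere, while EA17367 and EA17803 were also seen in most other organs.

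No other library had a count for 13 members. A fold against 0 is a lower bound, computed against a floor of 3 counts in each other library. EA29759 on chromosome 5 had 99.1 FPKM in ovary from 1035 counts and was at least 237-fold higher than in any other library. EA63730, outside the chromosome scaffolds, had 50.2 FPKM and was at least 71.8-fold higher. EA20954 on chromosome 13, a model of 1 exon, had 45.7 FPKM and was at least 288-fold higher. EA10584 on chromosome 10 had 30.5 FPKM and EA81184 on chromosome 17 had 29.1, at least 39.5-fold and 70.6-fold higher. Of the 13, 6 rested on fewer than 100 counts in ovary, 5 had 1 exon, and 7 still met the rule under TMM. With no count elsewhere, only the minimum level in ovary could remove a member there. A gene with no count in a library may still be transcribed there below the depth of that library. The highest ratio to a library with counts, noted after the values were seen, was that of EA71687 on chromosome 12, at 223 FPKM in ovary and 0.0891 in skin, a ratio of 2497 (854 to 12111) that rested on 6 counts in skin.

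Gene symbols and domains were known for 21 members, 17 with a symbol and 4 with a domain only, and they are grouped here by what the genes are known to do in other vertebrates. All lie on chromosome 1, which held 39 members. Their levels ran from 12.9 to 255 FPKM, and 13 of the 21 still met the rule under TMM.

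Histone chaperones and chromatin proteins came first among those with a known role in eggs. *NASP-2* is named for a chaperone that holds histones H1, H3 and H4 in store, as animal eggs do ahead of early cleavage. It had 181 FPKM in ovary, against 0.0660, 0.404 and 4.29 for the lowest, median and highest of the others. This was 42.2 times the next organ, brain (34.2 to 52.0). *NPM1-2*, a member of the nucleoplasmin family, histone chaperones first known from frog eggs, had 26.3 FPKM against 0, 0.0757 and 3.41, a ratio of 7.73 over gills (5.35 to 11.6). EA39575, which had a linker histone domain as found in the H1 family, had 38.8 FPKM against 0, 0.411 and 4.86, a ratio of 7.98 over brain (5.94 to 10.7). All of these met the rule under TMM as well. *NPM1-2* overlapped another gene model, and reads shared by overlapping models were left out of the counts.

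The next models are named for, or share a domain with, proteins of the spindle and of chromosome separation, a grouping made after the members were known. Of the 20 genes of the cell division list described below, 1 was restricted. *ESPL1-2* and *ESPL1-1* are named for separase, the protease that cleaves cohesin so that chromosomes can part in meiosis and mitosis. *ESPL1-2* had 66.9 FPKM, against 0.421, 3.54 and 12.6, and *ESPL1-1* had 19.02 against 0.0833, 0.767 and 3.01, with gall bladder next in both. The ratios were 5.30 (4.77 to 5.91) and 6.31 (5.30 to 7.56). *HAUS3* and EA23538, both with a domain of augmin, the complex that branches microtubules within the spindle, had 44.9 and 92.3 FPKM, and EA37279, with a domain of another augmin subunit, HAUS5, had 49.02. The other 12 organs had lowest values of 0.560, 1.24 and 0.306, medians of 3.45, 7.23 and 4.38 and highest values of 7.51, 17.9 and 9.52 for these 3 models, and the ratios were 5.98 over brain (4.37 to 8.33), 5.16 over brain (4.53 to 5.89) and 5.15 over blood cells (4.63 to 5.75). *HAUS3* and EA23538 lay 26909 bp apart with 4 models starting between their starts, and whether they are parts of 1 gene was not analysed. EA22453, with the domain of GTSE1, a microtubule-binding protein of dividing cells, had 44.1 FPKM against 0, 1.04 and 6.10, a ratio of 7.23 over gall bladder (5.97 to 8.91). *TUBA1C-3*, an α-tubulin, had 12.9 FPKM from 386 counts and no count elsewhere, and was at least 88.2-fold higher. Of this group EA22453 and *TUBA1C-3* met the rule under TMM, and the separase and augmin models stood at 2.77 to 4.18 times the next organ there.

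Enzymes of glycogen synthesis were also among the members. *GYG1-1* is named for glycogenin, which primes a glycogen chain, and *GYS1-1* and *GYS1-2* for glycogen synthase, which extends it. *GYG1-1* had 26.9 FPKM in ovary, against 0.518, 1.32 and 4.60, a ratio of 5.86 over the library labelled adipose tissue (4.86 to 7.05), or 6.19 over brain without that library. *GYS1-1* had 26.7 FPKM, against 0, 0.0670 and 1.86, and *GYS1-2* had 24.8 against 0, 0.172 and 3.29, with ratios over brain of 14.3 (8.56 to 26.0) and 7.53 (5.86 to 9.97). The *GYS1* models lay 112312 bp apart, and whether they are separate genes was not analysed. Every model of the group met the rule under TMM. *GYS1-2* overlapped another model.

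The other members with a symbol had varied roles. *BTG3-1*, of the BTG family of antiproliferative proteins that act on messenger RNA, had 53.9 FPKM against 0, 0.0797 and 0.925, a ratio of 58.2 (19.9 to 607) that rested on 5 counts in the library labelled adipose tissue. *ADAMTS6-1*, a secreted metalloprotease of the extracellular matrix, had 103 FPKM against 0.108, 2.29 and 6.799, a ratio of 15.1 (13.6 to 16.8). *RAB29-2*, a small GTPase of the Golgi and lysosome, was the highest of the named members, with 255 FPKM against 0.274, 10.2 and 34.6 and a ratio of 7.37 (6.68 to 8.17). All of these had the library labelled adipose tissue as the next organ and met the rule under TMM. Without that library *BTG3-1* was at 95.6 times intestine (26.2 to 798), *ADAMTS6-1* at 15.4 times brain and *RAB29-2* at 8.01 times gall bladder.

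Transport proteins, a ciliary protein and a ubiquitin ligase completed the named members. *SEC13-3*, of the COPII coat and the nuclear pore, had 90.8 FPKM against 0.177, 2.53 and 13.8 and a ratio of 6.60 over heart (5.94 to 7.36). *FLVCR1-3*, a membrane transporter, had 114 FPKM against 1.61, 7.98 and 20.7, and *SLC8A3-1*, a sodium and calcium exchanger, had 13.6 against 0, 0.180 and 2.12. Their ratios were 5.51 over gills (4.49 to 6.82) and 6.39 over the library labelled adipose tissue (4.65 to 8.997), and without that library *SLC8A3-1* was at 10.1 times brain. These 3 transport proteins fell below the rule under TMM, at 2.40 to 3.63 times the next organ. *ARMC4*, known for docking the outer dynein arms of motile cilia, had 38.7 FPKM against 0, 0.138 and 4.43 and a ratio of 8.74 over brain (7.002 to 10.9). *TRIM47*, a ubiquitin ligase, had 29.6 FPKM against 0, 0.132 and 1.79 and a ratio of 16.5 over the library labelled adipose tissue (12.3 to 22.6), or 20.1 over gall bladder without it. Both met the rule under TMM.

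Members had fewer exons and less exon sequence than other gene models at 5 FPKM or more in ovary, and more than the annotation as a whole. Models of 1 exon made up 24 of 352 (6.82%, 4.42 to 9.98), against 3.06% (2.74 to 3.40) of the 10795 models with at least 5 FPKM in ovary that were not restricted. Their median was 6 exons against 8, their median exon length 1291.5 bp against 1605 bp, and 17.3% against 11.5% were under 500 bp. The same medians over models restricted to other organs ran from 5 to 9 exons and from 858 to 1621 bp, with 0.971% to 11.9% of 1 exon, a range that contains the values for ovary. Over all 37562 gene models, expressed or not, 41.2% had 1 exon and the medians were 3 exons and 702 bp. Members overlapped another model in 47 of 352 cases (13.4%), against 16.8% of the other models with at least 5 FPKM in ovary.

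Members were also more often outside the 17 chromosomes than other models of the ovary at that level, but less often than gene models in general. Scaffolds not placed on a chromosome held 13 of 352 members (3.69%, 1.98 to 6.23), against 57 of 10795 (0.528%, 0.400 to 0.684) of the other models with at least 5 FPKM in ovary and 2230 of all 37562 gene models (5.94%, 5.70 to 6.18). Among models restricted to the other organs the share was 0% to 4%, the highest being 1 of 25 in gall bladder and 4 of 126 in slime gland. Read the other way, 18.6% of the 70 unplaced models with at least 5 FPKM in ovary were members, against 2.09% on chromosome 3 to 4.88% on chromosome 17. The assembly was made from testis DNA, and whether these scaffolds belong to the eliminated part of the genome was not analysed here.

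The unplaced members lay on 11 scaffolds and had levels from 5.34 to 495 FPKM. After EA17803, the next highest was EA51743, with 150 FPKM in ovary against 1.52, 11.1 and 16.3 in the others, a ratio of 9.22 over blood cells (7.24 to 11.9). EA86062 had 136 FPKM against 2.62, 13.8 and 20.2, a ratio of 6.70 over gills (5.29 to 8.73). EA51742 had 115 FPKM against 1.28, 7.30 and 12.6, a ratio of 9.09 over gills (7.45 to 11.1). EA68815 had 99.2 FPKM against 0.249, 3.96 and 17.9, a ratio of 5.55 over gills (4.73 to 6.54). These 5 were thus found in every other organ at lower levels, whereas 3 of the 13 had no count elsewhere. EA51743 and EA51742 shared a scaffold of 3 gene models, and the third, EA51741, named after its values were seen, was a member too, at 24.0 FPKM. Under TMM 6 of the 13 still met the rule.

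Some members had another member as a neighbour. Uninterrupted runs of neighbouring members numbered 34 and held 79 of the 352 (22.4%), with 25 runs of 2, 7 of 3 and 2 of 4. For models restricted to the other organs, where there were more than 2, the share in runs was 8% in gall bladder and 20.5% in gills. In the rest it was 25.6% in heart to 55.6% in slime gland. The share in ovary was thus lower than in most organs, although ovary had the most members. In 26 of the 34 runs all members were on the same strand, and the runs spanned 5058 to 312746 bp with a median of 50422.5 bp. Some neighbours on the same strand lay very close. On chromosome 17, for example, EA80137 ended at 73512197 and EA82764 started at 73512235. Whether such neighbours are parts of 1 gene was not analysed, so that a run need not be a cluster of separate genes.

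A run of 4 on chromosome 17 spanned 99823 bp from position 71739789. It held EA81184 at 29.1 FPKM, EA80323 at 206, EA82518 at 117 and EA80159 at 243. Their highest levels elsewhere were 0, 0.296, 0.166 and 0.682 FPKM. For EA82518 this was in the library labelled adipose tissue, and without that library it was 0.0477 in heart. The other run of 4 lay on chromosome 6 and held EA05049 at 29.5 FPKM, EA02035 at 20.8, EA02597 at 257 and EA04760 at 6.38, with EA04760 inside the span of EA02597. Their highest levels elsewhere were 0.999, 0.222, 0.298 and 0 FPKM. For EA05049 and EA02035 these were in the library labelled adipose tissue, and without that library they were 0.979 and 0.190 in brain. Of the 7 runs of 3, the one with the highest summed ovary level lay on chromosome 3, and it put EA75083 at 510 FPKM, EA75765 at 107 and EA72875 at 448 within 5449 bp, with EA75765 on the opposite strand to its neighbours. These were at most 0.769, 0.260 and 1.18 FPKM in any other organ.

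The run on chromosome 17 belonged to the densest stretch of members in the genome. Within 2 Mb, between the starts at 71739789 and 73512235, 10 of 49 gene models were members, out of 18 with at least 5 FPKM in ovary. None of the 49 was restricted to any other organ, but such models are rare, with 161 of 37562 in gills, the most of the other organs. The densest stretches of chromosomes 6 and 15 also had 0, and that of chromosome 5 had 4. Besides the run of 4 the stretch on chromosome 17 held EA81865, the highest member of all, and EA79848 at 65.6 FPKM. It also held EA82534 at 54.5, EA81913 at 154, EA80137 at 266 and EA82764 at 232. All but EA81865 are named after their values were seen. The median of the other 12 organs was at most 0.190 FPKM and their highest at most 1.28 for every member of the stretch. The models were small, with 2 to 7 exons and 216 to 1077 bp of exon. All 10 met the rule under TMM, but with such levels and ratios no factor in the range used could have removed them. This does not test how they depend on scaling. Whether they are copies of a gene family, or whether some are parts of 1 gene, was not analysed here. Reads that aligned to several places were left out of the counts.

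The most abundant transcripts of the ovary were mostly shared with other organs. None of the 20 highest gene models in ovary was restricted, 5 of them had their highest level in ovary, or 1 under TMM, and together they held 6.39% of the ovary's counts. The highest restricted model, EA81865, ranked 23rd, and 5 members were among the 100 most abundant and 64 among the 1000 most abundant. The ovary library was evenly spread over genes. Its 10 highest models by count held 5.46% of counts (5.45 to 5.47), against 67.8% in liver, 48.9% in skeletal muscle and 3.96% in brain.

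EA60146 on chromosome 4, a model of 1 exon, was the most abundant in ovary at 4934 FPKM, against 932, 3275 and 9101 for the lowest, median and highest of the others, and EA84808 on chromosome 15 followed at 4558 against 1120, 4796 and 19616. EA15365 on chromosome 11 had 3288 FPKM against 362, 3821 and 6247. These 3 were abundant in every library and highest in kidney, intestine and gall bladder, respectively. Ovary was exceeded by 3, 6 and 8 of the other organs, or by 8, 11 and 11 under TMM. EA82035, EA76946, EA59558, EA58434, EA75471, EA19231 and EA78837 were likewise abundant in every library and exceeded in other organs. They had 1857 to 1276 FPKM in ovary and 241 FPKM or more in every other library. None of these 10 carried a symbol.

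The 5 abundant models that were highest in ovary were EA80775, EA27718, EA10743, EA80324 and EA47044. EA47044 on chromosome 9 stood furthest apart, with 1452 FPKM in ovary against 5.87, 54.5 and 354 in the others, 4.10 times gall bladder and so below the fold of the rule, and 2.92 times heart under TMM. EA80324 had 1520 FPKM against 49.8, 442 and 1036. EA10743 had 1565 FPKM against 3.998, 436 and 1072, and EA27718 had 1635 against 59.0, 301 and 1186. EA80775 on chromosome 17 had 3557 FPKM against 184, 1747 and 2992. The ratios of these other 4 to the next organ were 1.47, 1.46, 1.38 and 1.19. Under TMM they were 0.995 against liver for EA80324, 0.804 and 0.790 against heart for EA10743 and EA27718, and 0.782 against blood cells for EA80775, so that EA47044 alone of the 5 kept its highest level in ovary.

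The other abundant models followed particular organs. EA30388 and EA28990 on chromosome 5, with 73 and 53 exons, had 2078 and 1697 FPKM in ovary, 5132 and 4207 in gall bladder, and 0.297 and 0.267 in blood cells, their lowest. EA58554 had 3453 FPKM in ovary, 5785 in heart and 5198 in kidney. EA80256 had 1942 in ovary, 2354 in heart, 2176 in blood cells and 1991 in kidney. EA29089 had 1323 FPKM in ovary against a median of 16.9 and a highest of 8132 in skin, with 5556 in gills and 3222 in gall bladder. Ovary was thus high for these models without being the highest organ.

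**Figure D4:**
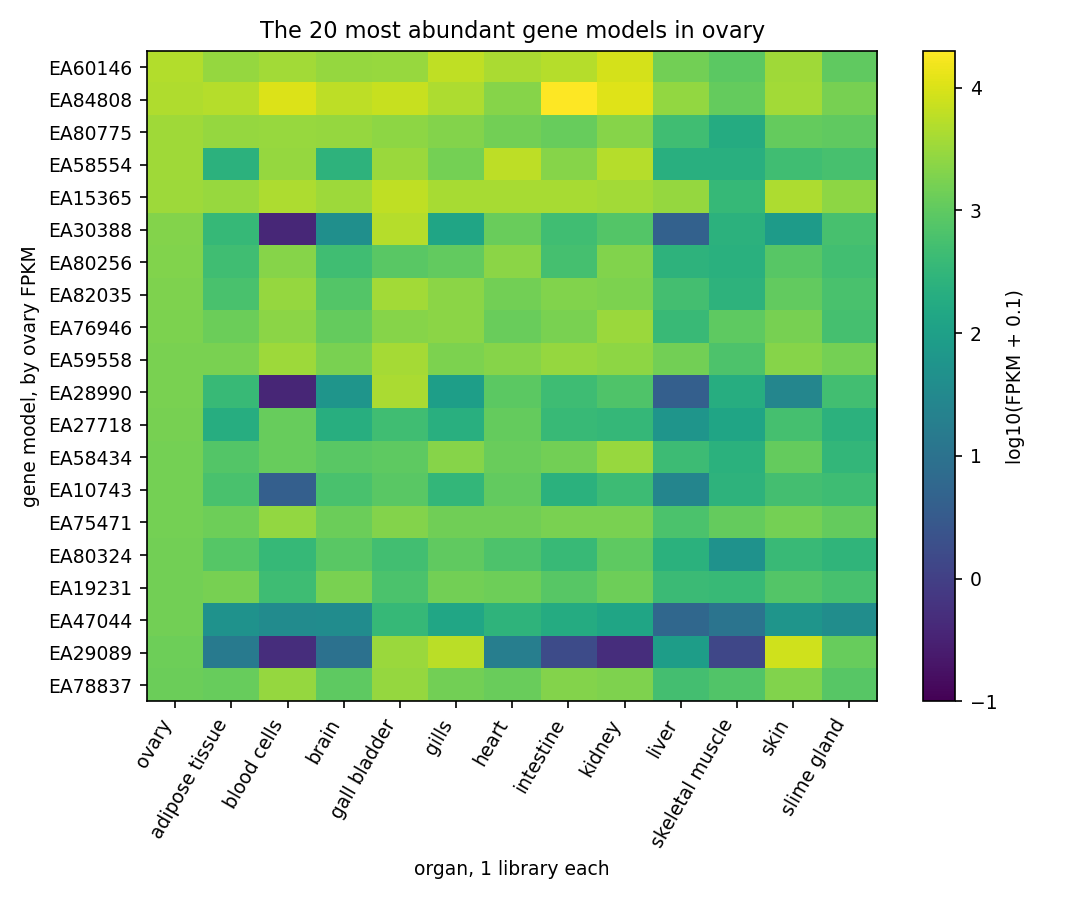
Levels of the 20 most abundant gene models of the ovary in all 13 libraries, as log10(FPKM + 0.1) by colour on the same scale as the plot of restricted models. Most are high in every column, and EA47044, at 1452 FPKM in ovary and 354 in gall bladder, stands furthest above the next organ.

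Lists of genes with a symbol were compared with the median of the other 12 organs, to describe the processes an ovary is known for. Over all 19238 gene models with at least 1 FPKM in any organ, 45.9% were at least 2 times that median in ovary and 6.38% were at most 0.5 times. The median log2 ratio of a list is therefore read against 0.57, the value over all these models, or 0.70 over the 943 of them with a symbol. The lists were drawn up with earlier results of these data known, so that they are not independent evidence of a direction. How often a gene was highest in ovary depended on scaling. Over all 19238 models it was 22.6%, or 11.7% under TMM. Under TMM it was 6 of 12 genes for meiosis, 8 of 15 for the oocyte list, 8 of 18 for cell division, 5 of 20 for DNA replication and repair, 4 of 15 for ribosome biogenesis, 0 of 10 for the proteasome, 4 of 16 for splicing, 4 of 5 for the nuclear pore, 4 of 20 for extracellular matrix and 1 of 15 for gonadal signalling. The lists count gene models. The oocyte count includes *DICER1-1*, *DICER1-2* and *DICER1-3*, at 1.91, 2.43 and 1.61 FPKM, which lie close together on 1 strand of chromosome 1. Whether models that share a symbol, such as those of *DICER1*, *SMC4* and *FN1*, are parts of 1 gene was not analysed. The counts below are under scaling by the total.

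The meiosis list had a median above this background. It includes the separase models, which the rule had picked, and *CDK1-2*, which like them also acts in mitosis. *CCNB1IP1* and *HORMAD1* were near the floor in ovary, at 56 and 12 counts. Of 12 measured members 8 were at least 2 times the median of the other organs and 0 at most 0.5 times, 9 had their highest level in ovary, and the list's median log2 ratio was 1.504, which is 0.93 above that of all models and 0.99 above it under TMM. *CDK1-2*, the kinase that drives entry into meiotic and mitotic division, had 141 FPKM against 0.224, 10.7 and 74.1. *FMN2*, a formin that positions the spindle in mouse oocytes, had 19.7 against 0, 0.131 and 14.2, the highest being the library labelled adipose tissue, or 12.6 in brain without that library. *RAD54B*, of homologous recombination, had 18.7 against 0.363, 3.09 and 8.71. These 3 were highest in ovary but within 2.15 times of the next organ. *CDC25B-1*, the phosphatase that activates the cell-division kinase, had 93.1 FPKM, with other organs at up to 72.8. *SMC3*, a cohesin subunit, and *HASPIN*, a kinase of histone H3, had 45.5 and 22.9 FPKM and were higher in blood cells and in gall bladder, at 57.0 and 26.4. *CCNB1IP1*, a crossover factor, had 1.94 FPKM and *HORMAD1*, a protein of the unpaired chromosome axis, 0.255, the last below the 1.15 of the library labelled adipose tissue and the 1.04 of intestine. The separase models are described above.

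Genes of oocyte RNA and chromatin storage were uneven. Of 15 members 9 were at least 2 times the median, 0 at most 0.5 times, and 3 were restricted, and the median log2 ratio of 1.21 was 0.64 above all models. With a pseudocount of 5 FPKM in place of 1 it was 0.39, against 0.31 over all models and 0.43 over those with a symbol, so that it then lay between both backgrounds. After *NASP-2*, *BTG3-1* and *NPM1-2*, the furthest above the others was *CAPRIN2*, an RNA-binding protein, with 118 FPKM against 0.0872, 2.99 and 33.9. *H3-3A-2*, histone H3.3, had 761 FPKM against a median of 628, and *PAIP2*, a regulator of poly(A)-binding protein, had 316 against 254, both highest in blood cells. Under TMM *H3-3A-2* was higher in 9 of the other organs than in ovary. *PAIP2* was then higher in all 12, with 173 FPKM in ovary and 883 in blood cells. *SPATS2-2*, named for a spermatogenesis gene, had 30.6 FPKM, below the median of 36.0 in the other organs. Named after their values were seen, *CPEB2* had 8.01 FPKM against a median of 12.3, and *ZPLD1* had 3.09 against a median of 0.570 and 11.5 in brain. Summed over the list, ovary, at 1534 FPKM, was below blood cells at 2343 and gills at 1599. The list therefore held a few members far above the other organs, while others were found everywhere or were low in level.

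Genes of cell division and of the nucleus were mostly above the other organs too. Of 18 cell division genes with at least 1 FPKM 12 were at least 2 times the median and 11 were highest in ovary, with a list median of 1.12. *CENPI*, a kinetochore protein, had 44.8 FPKM against 0.180, 2.94 and 28.5, and *NUF2*, another, 37.1 against 0.0940, 8.54 and 28.6, both with gall bladder next. *SASS6-2*, of centriole assembly, had 39.3 against 2.23, 9.13 and 15.95. *SMC4-2*, of condensin, and *CEP57*, of the centrosome, had 49.6 and 46.2 FPKM and were as high in blood cells, at 52.7 and 47.4. Of 5 nuclear pore and transport genes with at least 1 FPKM 4 were at least 2 times the median and highest in ovary, with a list median of 1.62 over 7 measured. Beside *SEC13-3*, the pore proteins *NDC1*, *NUP155* and *AAAS* had 47.0, 34.0 and 17.1 FPKM against medians of 6.91, 9.58 and 4.89, and the export factor *XPO5* had 38.001 against 24.6.

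Genes of ribosome biogenesis were above the median of the other organs throughout. Of 15 genes 13 had their highest level in ovary, or 4 under TMM, 11 were at least 2 times the median and 0 at most 0.5 times, and the median log2 ratio was 1.29, or 0.72 above all models and 0.46 above them under TMM. *FCF1*, which processes the small-subunit RNA, had 129 FPKM against 12.8, 34.8 and 59.97. *RPF2*, of large-subunit assembly, had 124 against 25.8, 38.4 and 49.1. Its ratio of 2.53 to the next organ became 0.658 under TMM, where liver and skeletal muscle were higher than ovary, whereas *FCF1* stayed highest in ovary at 1.26 times liver. *DIMT1*, *UTP25*, *NOP53* and *TRMT112* had 90.4, 63.9, 80.5 and 100.3 FPKM against highest values of 55.7, 37.8, 78.0 and 96.0, and of these *DIMT1* and *UTP25* were highest in ovary under TMM as well. None was restricted.

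DNA replication and repair, splicing and the proteasome were closer to the background. Of 20 replication and repair genes 10 were at least 2 times the median, with a list median of 0.79, and *UIMC1*, a DNA damage protein, had 87.8 FPKM against 0.735, 7.88 and 18.2, which at 4.81 times blood cells fell short of the rule. *BCCIP* had 104 FPKM and *HUS1*, of the checkpoint clamp, 80.9, against medians of 33.5 and 14.2, and *RAD17-2*, *RAD17-1* and *TIMELESS-1* had 56.6, 24.9 and 24.7 against 21.5, 10.2 and 13.2. Of 16 splicing genes 9 were at least 2 times the median, with a list median of 1.01. *RBM48*, of minor introns, had 52.7 against 10.9, *SLU7* had 57.8 against 19.5, *MAGOHB* 111 against 51.0 and *CCDC12* 79.5 against 38.8. *DHX15* and *PRPF39* had 78.7 and 54.2 against 70.4 and 42.1, and under TMM they were higher in 10 and 11 of the other organs than in ovary. Of 10 proteasome and ubiquitin genes 3 were at least 2 times the median. Their list median of 0.51 was below that of all models, and it was -0.06 under TMM. *PSMD8-2*, *PSME3*, *PSMD8-1*, *PSMC5*, *UBA1* and *PSMA5* had 251, 221, 206, 197, 106 and 97.5 FPKM in ovary. Of these *PSME3* and *PSMD8-1* were highest there, at 1.08 and 1.001 times the next organ. For *PSMD8-1* that was the library labelled adipose tissue, and without it the ratio was 1.09 over brain. *PSMD8-2* was then highest in ovary too, at 1.06 times brain.

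Extracellular matrix genes had a list median of 1.80, or 1.23 above all models and 0.80 above them under TMM. This was the highest of the lists under scaling by the total with a pseudocount of 1 FPKM, whereas under TMM the medians were 1.05 for meiosis, 0.93 for the nuclear pore and 0.86 for matrix genes. Of 20 genes 18 were at least 2 times the median of the other organs, 9 were highest in ovary, and *ADAMTS6-1* was restricted. *DCN*, the proteoglycan decorin, had 310 FPKM against 0.0208, 5.51 and 95.5, and *TNFAIP6-2*, a hyaluronan-binding protein that in mouse stabilises the matrix around the ovulated egg, had 138 against 0, 3.30 and 35.3. *FN1-4*, a fibronectin model, had 140 against 0.0289, 17.4 and 47.2. These were 3.24 times gall bladder, 3.90 times skin and 2.96 times heart. The other fibronectin models of the list, *FN1-5*, *FN1-6*, *FN1-7* and *FN1-8*, were highest in liver under TMM. They had 3.54, 0.516, 0.932 and 0.489 FPKM in ovary there, against 24.6, 60.4, 1.81 and 88.3 in liver. *FSTL1* had 479 FPKM and *NID2* and *NID1-2*, the nidogens of basement membrane, 253 and 120, close to gall bladder with 549, 219 and 133. Over the 20 genes the highest other organ was gall bladder for 5, liver for 5, the library labelled adipose tissue for 4, and heart, skin, brain or intestine for the rest.

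Genes of gonadal signalling were mostly above the median of the other organs without being particular to ovary. Of 15 genes with at least 1 FPKM 9 were at least 2 times the median and 5 were highest in ovary, or 1 under TMM. The list median was 1.24. *INHBB-2*, the β subunit of activin and inhibin B, had 29.6 FPKM against 0, 0.278 and 22.6, the highest being intestine. *TGFBR2*, a TGF-β receptor, had 220 against 9.87, 46.7 and 209, with heart next. *FGFR2-1* had 39.7 FPKM against a median of 9.25, and *TGFB3-2*, a TGF-β ligand, had 35.9 against 8.09 and up to 73.3 in blood cells. *ZBTB16-1* had 29.1 against 18.4, and *CYP1B1-1*, an enzyme that oxidises oestrogen, had 17.95 against 7.08 and up to 62.7 in brain. The genes named so far were those of the list with the highest level in ovary. Named after their values were seen, *GHR*, *GDF11-1* and *LHX9* had 4.09, 2.72 and 2.95 FPKM in ovary under TMM. Their highest levels elsewhere were 109 in skeletal muscle, 233 in liver and 13.3 in brain.

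Markers of other cell types that a dissected ovary could hold were summed over each list. Muscle genes summed to 32.2 FPKM in ovary, against 1.34, 80.0 and 28657 for the lowest, median and highest of the other organs, and the myosin light chain *MYL2-1* was at 2.21 against 28576 in skeletal muscle. Neural genes summed to 70.8 against 0.414, 48.1 and 1142, the highest being the library labelled adipose tissue, with 1125 in brain. Of the sum in ovary *RAB3A-2* made up 58.4 and the neuropeptide *AVP* 5.35. Liver genes summed to 43.7 against 10.4, 33.8 and 7931, with *TFPI* at 19.05 and *SERPINF1-3* at 17.1 against 7621 in liver. Blood genes summed to 75.9 against 8.49, 49.5 and 280, with *LYL1-1* at 37.1 and *WAS-2* at 23.0. For the muscle, neural and liver lists the ovary was thus far below the organ that the list names. For the blood list it ranked 3 of the 13 libraries, below gills at 280 and blood cells at 189.

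The ciliated list had its highest sum in ovary, 58.8 FPKM against 0.991, 3.98 and 32.2, but *ARMC4* alone made up 38.7 of the sum in ovary. The 32.2 was that of the library labelled adipose tissue, and brain had 31.7. Of 9 ciliated genes with at least 1 FPKM 8 were at least 2 times the median, *SPAG16* and *DNAI1-2* at 5.85 and 4.10 FPKM being the next, and the list median of 0.72 was 0.15 above all models. Epithelial genes summed to 752 against 2.94, 35.9 and 914, of which the keratin *KRT14-4* made up 730, against 0.584, 9.13 and 822 in the others with gall bladder the highest. The remaining 12 epithelial genes had 11.4 FPKM or less, 4 of them with no count. The list medians were 0.34 for muscle, 0.77 for neural, 1.18 for liver, 0.72 for blood and 0.05 for epithelial genes, and under TMM the liver value was -0.0033. At least 2 times the median were 6 of 11 muscle, 6 of 11 neural, 4 of 7 liver, 2 of 6 blood and 3 of 8 epithelial genes with at least 1 FPKM, most of them low in level, such as *MUSK* at 3.26 and *UNC80-3* at 1.54 FPKM. The part of such cells in the restricted models was not tested.

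Genes named for transposon-derived proteins were not above the background. Of 8 with at least 1 FPKM in any organ 1 was at least 2 times the median and 2 were at most 0.5 times, 0 were highest in ovary, and the median log2 ratio was 0.08 over 17 measured. *TIGD1-17* had 17.9 FPKM in ovary against a median of 15.7 and *TIGD1-19* 7.59 against 6.67, while *GTF2IRD2B-5* had 3.87 against 8.15. Transposons themselves, which germ cells of many animals hold in check, were not analysed here.

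**Figure D5:**
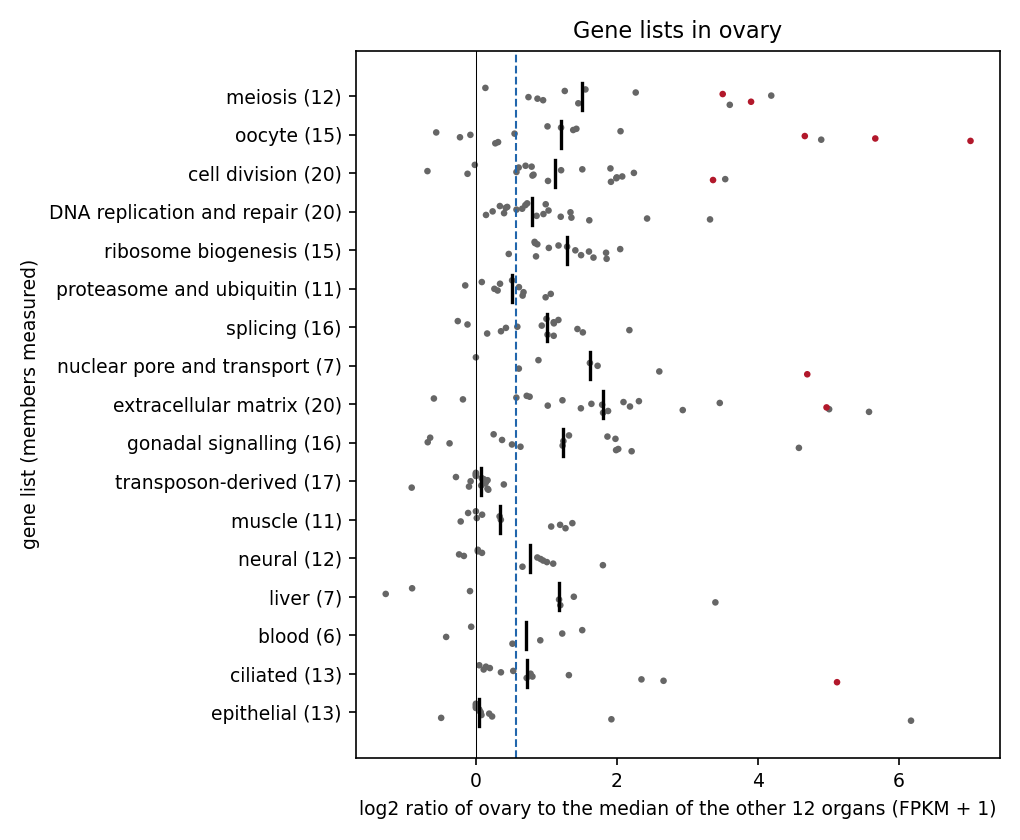
Log2 ratio of ovary to the median of the other 12 organs, computed on FPKM + 1, for each measured gene of 17 lists (points, red where ovary-restricted), with the list median (black bar) and the median over all 19238 gene models (dashed line, 0.57). Under this scaling by the total, extracellular matrix and nuclear pore genes have the highest medians, 1.80 and 1.62, though not under TMM, where meiosis is highest at 1.05, and epithelial and transposon-derived genes the lowest, 0.05 and 0.08.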

How the data were processed

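The authors aligned the reads to their *E. atami* genome with STAR 2.5.2b and deposited raw counts per gene model, made with featureCounts 1.6.1 per the file header, together with the exon length of each model. Per that header, both ends of a pair were counted separately without strand, and reads that aligned to several places or overlapped several models were left out, so near-identical copies and overlapping models are undercounted. Accordingly 83.6% of counts from 1 to 4 were even. Counts were halved to read pairs for the intervals on counts (exact binomial for a share of counts, exact conditional binomial for a ratio). Intervals on shares of gene models were exact binomial over models. Groups came from the organ labels.

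FPKM was computed as the count divided by the total of assigned counts and by the exon length. Alternatives used TMM factors (edgeR 4.0.16) and size factors (DESeq2 1.42.0) in R 4.3.3, other thresholds, other pseudocounts than 1 FPKM, and each other library left out. Tables were built in Python 3.11.15.

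Gene symbols, protein domains and chromosome numbers came from source tables of the study. Of 1998 table entries 1966 matched a gene model by identifier and position, giving 1027 symbols, all on chromosome 1. Coordinates are those of the deposited table's scaffolds, placed on chromosomes of the same assembly.

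The members and gene lists were chosen with earlier results of these data known. Named were the 20 highest models in ovary, the 20 highest members, members with a symbol or domain, up to 5 members with no count elsewhere, the 5 highest unplaced members, the 3 models nearest the fold threshold on each side, up to 6 genes per list with the highest ovary level and every meiosis gene except those that are not reported here, and the members of the 3 longest runs, with ties decided by the summed ovary level. Names outside this rule are said to be chosen after their values were seen. Sequences were not analysed here.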

Additional observations from a re-analysis of the deposited data

How the results depend on the processing

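The limits are the same throughout. Each organ had 1 library, so no interval covers a spread between animals. Intervals on ratios and shares of counts cover counting error only, and those on shares of gene models only the number of models. Differences between animals, stages of the ovary or dissections cannot be told apart from differences between organs. No paired analysis was possible because no organ had more than 1 library and no test was made. Counts of members depended most on scaling and on the fold. The number of ovary-restricted models was 224 with TMM factors, 219 with DESeq2 size factors, 661 with a fold of 3 and 209 with a fold of 10. Leaving out each other organ in turn gave 354 to 387, of which 3.44% to 3.88% were unplaced and 6.37% to 7.202% had 1 exon. The 10 highest models held 3.52% of ovary counts when ranked by FPKM and 4.63% of the summed FPKM. Leaving out the library labelled adipose tissue, an alternative chosen after seeing the data, gave 772 models restricted to brain. Against the highest other organ in place of the median, list medians turned negative for DNA replication and repair (-0.0565), proteasome (-0.31), splicing (-0.16), extracellular matrix (-0.0879), gonadal signalling (-1.36), transposon-derived (-0.45), muscle (-2.91), neural (-1.78), liver (-5.42), blood (-1.04), ciliated (-0.36) and epithelial genes (-2.04), and fell to 0.53 for meiosis, 0.30 for cell division and 0.59 for ribosome biogenesis, beside -0.88 over all models. TMM and DESeq2 factors gave 0.52 and 0.47 for cell division, 0.27 and 0.23 for DNA replication and repair, 0.51 and 0.45 for ribosome biogenesis, 0.33 and 0.30 for splicing, 0.86 and 0.79 for extracellular matrix, -0.0624 and -0.0783 for the proteasome, and -0.0033 and -0.0511 for liver genes. A pseudocount of 5 FPKM gave 0.70 for cell division and 0.44 for DNA replication and repair, and 0.1 FPKM gave 0.18 for transposon-derived, 1.43 for neural and 0.41 for epithelial genes. The median of all models moved under these settings too, but some lists also moved relative to it. Relative to that median, under TMM, the liver list went from 0.61 to -0.06, matrix genes from 1.23 to 0.80 and ribosome biogenesis from 0.72 to 0.46. Meiosis genes went from 0.93 to 0.99. The other 147 values did not change sign, except that transposon-derived genes came to exactly 0 under TMM and DESeq2 factors. Some of them still moved, for oocyte genes to 0.39 with a pseudocount of 5 FPKM and for liver genes to 0.55 with only the longest model of each symbol.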

Other observations

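A small set of gene models was shared by the ovary and 1 other organ, at 5 FPKM or more in both and at least 5 times the highest of the remaining 11 in both. There were 29 of 37562 gene models, of which 25 were not ovary-restricted. The partner was kidney for 7, skin for 6, gills for 5, heart for 4, gall bladder for 3, and blood cells, brain, intestine and liver for 1 each. Brain and the library labelled adipose tissue resembled each other, so that the rule could hardly pick either as a partner. These counts are under scaling by the total and were not repeated under TMM, where some of the models named here may not meet the rule. The genes named here were chosen after their values were seen. EA22568 on chromosome 1 had 503 FPKM in ovary and 228 in gills, against at most 33.3 elsewhere. EA41633 on chromosome 2 had 192 FPKM in ovary and 469 in liver, against at most 0.534 elsewhere, the widest gap of these. EA06465 on chromosome 16 had 169 in ovary and 504 in skin, against at most 7.33 elsewhere. *KCNK1-1*, a potassium channel, had 45.4 FPKM in ovary and 44.0 in kidney, against at most 3.73 elsewhere.

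Among the 10 most abundant genes with a symbol in ovary, *TUBB4B-1*, a β-tubulin, had 814 FPKM against a median of 592 in the other organs. *RTN1-2*, a reticulon of the endoplasmic reticulum, had 721 against 396, and *CTNNB1*, β-catenin, 374 against 272. None of these 3 was highest in ovary. A model with the domains of vitellogenin, the yolk precursor, EA36901 on chromosome 1, had 1.89 FPKM in ovary and 50779 in liver.

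Gene models low in 1 organ alone, with 5 FPKM or more in each of the other 12 and at least 5 times less in that organ than in the lowest of them, numbered 0 for ovary. There were 97 for skeletal muscle, 72 for liver, 40 for blood cells and 1 for the library labelled adipose tissue, out of 37562 gene models. These counts are under scaling by the total and were not repeated under TMM. The TMM factors were 0.288 for liver, 0.322 for skeletal muscle and 1.83 for ovary. Scaling by the total therefore gives lower levels than TMM in liver and skeletal muscle and higher levels in ovary.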
